A study of Mus musculus with 12 samples.

Results

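The collagen chain genes were taken as all gene symbols made of Col, a number, a and a number, such as Col1a1. There were 37 of them among the 19012 symbols measured. Their levels were compared among 4 wild-type mouse livers, 4 livers without the transcription factor genes E2f7 and E2f8 (double knockout, DKO) and 4 tumors from livers of DKO mice. No agent is named for any group, and the age, sex and strain of the mice, the promoter of any Cre and the deleted part of each gene are not given in the sources used here. Each DKO tumor shares an animal code with the DKO liver of the same number, so "DKO animal 3" below means liver 3 and tumor 3. The wild-type livers carry codes of other animals. The names of the deposited data also hold a tag that the labels do not explain. L02 stands on every DKO liver and on wild-type livers 1 and 2, and L03 on every DKO tumor and on wild-type livers 3 and 4. DKO tumor and DKO liver therefore differ in tag as well as in tissue, and each comparison was read beside the difference between the L03 and L02 wild-type livers.

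Collagens are secreted as helices of alpha chains, each chain encoded by its own gene. Fibrillar collagens such as types I, III and V form the scar and capsule fibers of the liver and are made mainly by stellate cells and portal fibroblasts. Type IV forms the sheet-like network of basement membranes, type VI forms beaded filaments around cells, and type XVIII, the source of the fragment endostatin, is a basement membrane collagen with known expression in hepatocytes. Levels are given in RPKM (reads per kilobase of exon and per M reads, M for mega), which can be compared between genes because it is per length. Differences are in log2(RPKM + 1), on which changes of low genes are understated.

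Of the 37 genes, 16 passed the filter of at least 0.5 RPKM in at least 4 libraries and were tested, and 21 were not. The tested genes were the fibrillar chains Col1a1, Col1a2, Col3a1, Col5a1, Col5a2 and Col27a1, the beaded filament chains Col6a1 and Col6a2, and the fibril-associated chains Col14a1 and Col16a1. The others were the multiplexins Col15a1 and Col18a1, the network chain Col8a1, and the basement membrane chains Col4a1, Col4a2 and Col4a5. Among the 21 untested genes, 18 stayed under 0.5 RPKM in every library, and 14 of the 37 had 0 reads in at least 1 library. Libraries held 7.985 to 15.956 M reads. For 5 kb of exons a floor of 3 reads equals 0.0376 to 0.0751 RPKM, depending on the library, which covers counting error only. The liver origin of the libraries was checked with Alb, encoding albumin, which was between 20700 and 109000 RPKM in the 12 libraries. Livers and tumors overlapped in it (DKO liver 4 at 98600, DKO tumor 4 at 57600), so it does not tell tumor from liver.

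Promoter sequences are shown for the members on which the results turn: the type IV pair, Col1a2 and Col18a1. They come from RefSeq (GRCm38.p6, whereas the deposited gene coordinates are of mm9), run 5′ to 3′ on the gene's strand and hold 250 bases before and 50 after the start of the transcript. Capitals mark a CCAAT box (CCAAT) or a GC box (GGGCGG) on either strand. Col4a1 (chr8:11312777-11313076, minus strand) and Col4a2 (chr8:11312555-11312854, plus strand) start head to head, and their windows share bases. The GC box marked for Col4a1 and the last GC box marked for Col4a2 are the same bases, read on opposite strands. By its mm9 coordinates the measured Col4a1 transcript starts inside its window, at 11312825. The measured Col4a2 transcript starts at 11313023, past the end of its window, so the Col4a2 window may belong to another start. The first Col18a1 sequence (chr10:77113656-77113955, minus strand) belongs to the transcript used here, which has the longer exons, and the other one (chr10:77166481-77166780, minus strand) starts 52825 bases upstream. Col1a2 lies at chr6:4505368-4505667, plus strand.
Col4a1: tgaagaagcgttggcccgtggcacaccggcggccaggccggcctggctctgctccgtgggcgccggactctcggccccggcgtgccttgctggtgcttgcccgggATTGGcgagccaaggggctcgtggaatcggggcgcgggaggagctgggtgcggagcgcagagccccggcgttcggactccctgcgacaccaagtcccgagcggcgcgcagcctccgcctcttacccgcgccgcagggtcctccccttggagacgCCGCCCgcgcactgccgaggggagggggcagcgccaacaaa
Col4a2: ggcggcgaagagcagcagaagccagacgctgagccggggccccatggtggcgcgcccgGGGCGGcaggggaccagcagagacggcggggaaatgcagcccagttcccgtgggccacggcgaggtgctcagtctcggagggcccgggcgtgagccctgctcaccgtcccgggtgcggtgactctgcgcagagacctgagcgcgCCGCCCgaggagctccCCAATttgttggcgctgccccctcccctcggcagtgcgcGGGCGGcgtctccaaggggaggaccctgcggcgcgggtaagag
Col1a2: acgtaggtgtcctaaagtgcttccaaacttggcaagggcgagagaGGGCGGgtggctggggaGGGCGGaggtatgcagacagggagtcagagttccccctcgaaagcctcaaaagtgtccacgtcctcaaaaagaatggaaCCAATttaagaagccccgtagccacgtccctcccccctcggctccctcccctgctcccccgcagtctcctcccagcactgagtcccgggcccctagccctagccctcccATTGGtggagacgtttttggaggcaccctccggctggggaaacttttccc
Col18a1, transcript used: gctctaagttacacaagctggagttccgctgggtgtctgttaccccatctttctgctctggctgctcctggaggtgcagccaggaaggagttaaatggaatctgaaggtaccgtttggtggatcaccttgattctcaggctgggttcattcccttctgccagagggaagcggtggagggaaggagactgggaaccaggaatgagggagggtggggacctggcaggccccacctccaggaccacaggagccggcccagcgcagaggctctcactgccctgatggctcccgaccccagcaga
Col18a1, upstream start: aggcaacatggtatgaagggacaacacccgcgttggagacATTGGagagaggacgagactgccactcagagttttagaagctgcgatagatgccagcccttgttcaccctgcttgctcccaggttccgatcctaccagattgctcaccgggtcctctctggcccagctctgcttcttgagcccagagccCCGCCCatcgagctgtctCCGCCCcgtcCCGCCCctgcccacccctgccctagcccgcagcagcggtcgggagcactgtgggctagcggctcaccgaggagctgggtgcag

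Of the 37 genes, 30 matched a promoter entry, with 33 promoters in all. Col1a1 and Col4a3 had no entry. Letters of an E2F site (TTTCCCGC, TTTCGCGC, TTTGCCGC or TTTGGCGC, both strands) were found in 1 of the 33, that of Col17a1, and in 2.26% of 32851 promoters of the same length. The GC box letters were in 20 of the 33 and in 35.7% of all promoters, the CCAAT letters in 12 of the 33 and 37.4%, and a TATA box (TATAAA) in 5 of the 33 and 13.6%. None of these motifs contains another. The promoter at the start of the Col18a1 transcript used here held none of them, whereas the upstream one held 3 GC boxes and 1 CCAAT box. A match describes letters in these windows only.

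Comparison of DKO tumors with wild-type livers asked how collagen expression in tumor tissue differs from that of normal liver. No collagen gene passed the test, and the 16 tested genes split evenly, with 8 higher and 8 lower in the tumors. Of all genes, 5343 were higher and 6008 lower. The highest differences were those of the basement membrane chains Col4a1 (log2 difference 1.21, SE 0.46, limma adjusted p = 0.181), Col4a2 (0.90, SE 0.45, adjusted p = 0.299) and Col4a5 (0.48, SE 0.21, adjusted p = 0.236). The lowest were those of Col6a1 (−0.64), Col6a2 (−0.57) and Col1a2 (−0.48). limma called 0 of the 16, where it called 1.9% of all 11351 genes tested, 216 in number, with 16 without wild-type liver 4 and 413 without tumor 3 as the extremes when single libraries were left out. At an unadjusted p under 0.05 there were 2 of 16, Col4a1 and Col4a5, both higher, where 19.2% of all genes passed that level and 8.77% were higher. voom on the recovered reads called 0, with 1 at an unadjusted p under 0.05. For no tested collagen did the 4 tumors lie wholly above or below the 4 wild-type livers, whereas 5.57% of all genes did so above and 6.32% below. The median difference was −0.16, beside −0.02 over all genes.

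Comparison of DKO livers with wild-type livers asked how livers without both genes differ from normal liver. All 16 tested collagens had a higher estimate in the DKO livers, as had 6862 of all 11351 genes. The median of the 16 was 0.50 beside 0.08 for all genes, yet none of them passed the test. The largest estimates were those of Col1a2 (1.08, SE 0.47, limma adjusted p = 0.39), Col6a1 (1.0) and Col3a1 (0.94). limma called 0 of the 16 and 0.0% of all genes. At an unadjusted p under 0.05 there were 5 of 16, all higher, where 12.4% of all genes passed that level and 9.16% were higher, and voom gave 0 and 6. The groups overlapped for every tested collagen, while 5.62% of all genes lay wholly higher and 1.96% wholly lower. Against the L02 wild-type livers alone, which share the tag of the DKO livers, 15 of 16 estimates were still positive. So were 7141 of all 11351 genes. The median of the 16, however, was 0.19 (all genes 0.09). None of these 16 reached an unadjusted p under 0.05, against 5.28% of all genes, and limma called 0 of 16 and 0.0% of all. Comparisons of tumors and of DKO livers with wild-type livers share the 4 wild-type libraries.

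Comparison of DKO tumors with DKO livers of the same animals asked how tumor differs from liver within these mice. The lowest estimates in the tumors were those of Col6a1, Col1a2 and Col6a2, followed by the fibril-associated Col14a1 (−0.93) and Col16a1, and only the type IV, XV and VIII chains were at or above the liver. The differences were −1.64 for Col6a1 (SE 0.47, limma adjusted p = 0.141), −1.56 for Col1a2 (SE 0.47, adjusted p = 0.151), −1.47 for Col6a2 (SE 0.38, adjusted p = 0.106) and −0.82 for Col16a1 (SE 0.19, adjusted p = 0.081). limma called 0 of 16 and 0.00881% of all genes. At an unadjusted p under 0.05 there were 8 of 16, all lower, where 16.1% of all genes passed that level, 12% lower and 4.01% higher, and voom gave 0 and 8. With the animal as a block, in a fit of the 8 DKO libraries only, limma called 4 of 16, where it called 0.625% of all genes. Col16a1 (adjusted p = 0.0397), Col1a2 (0.0113), Col6a1 (0.0171) and Col6a2 (0.0255) then fell in the tumors, with the same log2 differences. The same 8 libraries without the block gave calls for Col6a2 and Col16a1 and for 0.485% of all genes. For 5 of 16 collagens, Col1a2, Col6a1, Col6a2, Col16a1 and Col18a1, every tumor was below every DKO liver, against 4.08% of all genes, and for 0 of 16 above, against 2.12%. Without DKO tumor 3, limma called 1 of 16, Col16a1, and 3.2% of all genes. In bulk tissue, fewer cells of a type and less RNA per cell cannot be told apart.

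The same chains separated the wild-type livers by tag. Among the wild-type livers, L03 minus L02 was −1.82 for Col1a2 (SE 0.42, limma adjusted p = 0.242), −1.74 for Col6a1 (SE 0.44, adjusted p = 0.446), −1.53 for Col6a2 (SE 0.33, adjusted p = 0.174) and −0.74 for Col16a1 (SE 0.19, adjusted p = 0.494). limma called 0 of 16 here and 0.211% of all genes. At an unadjusted p under 0.05 there were these 4, all lower in L03, where 2.08% of all genes passed that level and 0.916% were lower. After median-of-ratios scaling it called Col1a2 and Col6a2 (adjusted p = 0.0338 and 0.0233) and after quantile normalization Col6a2 (0.0154), against 0.282 and 0.352% of all genes. In both L03 wild-type livers 11 of 16 collagens were lower than in both L02 livers, against 14.5% of all genes, and 0 were higher, against 17.0%. Over all 12 libraries, the 6 with tag L03 lay wholly below the 6 with tag L02 for Col1a2, Col6a1, Col6a2, Col16a1 and Col18a1, which is 5 of 16, against 1.03% of all genes, and 0 of 16 lay above, against 0.643%. With the tag as a covariate, the tumor minus DKO liver difference was 0.10 for Col6a1 (SE 0.54), 0.26 for Col1a2 (SE 0.51) and 0.06 for Col6a2 (SE 0.41). It was −0.09 for Col16a1 (SE 0.23) and −0.09 for Col18a1 (SE 0.34). limma then called 0 of 16 and 0.0% of all genes, with 0 of 16 at an unadjusted p under 0.05, against 1.59%, and the median of the 16 moved from −0.70 to 0.04. Every DKO liver is L02 and every DKO tumor L03, so that fit takes its tag difference from the 4 wild-type livers alone, and within the DKO mice tag and tissue cannot be told apart.

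**Figure D1:**
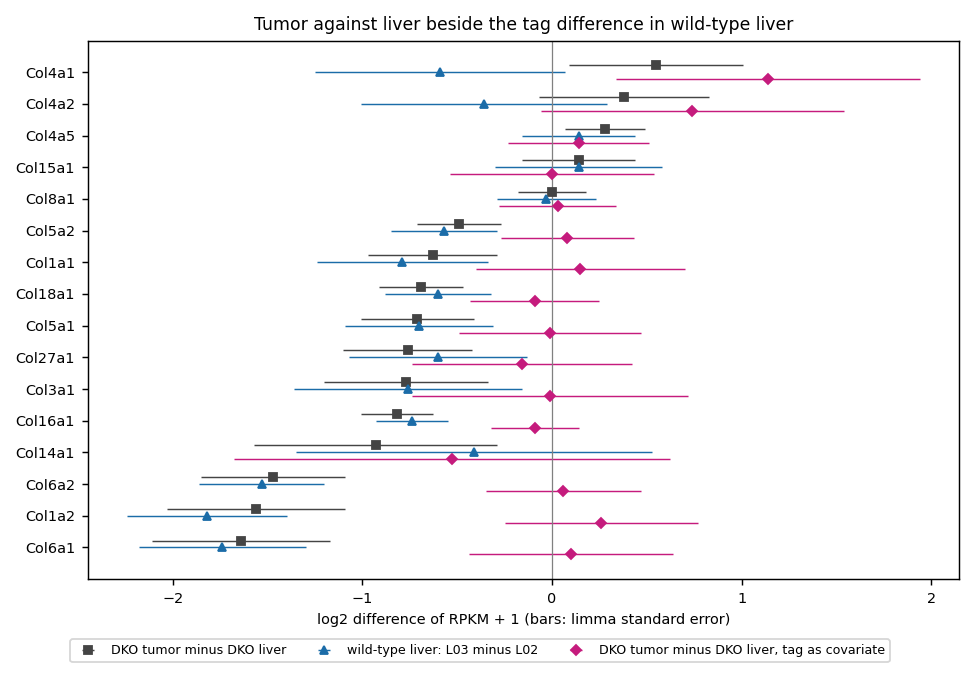
Log2 difference of RPKM + 1 (x axis; bars, limma standard error) for the 16 tested collagens, as DKO tumor minus DKO liver, as L03 minus L02 among wild-type livers, and as DKO tumor minus DKO liver with the tag as a covariate. For Col6a1, Col1a2 and Col6a2 the first and second lie together between −1.82 and −1.47 and the third lies between 0.06 and 0.26, whereas Col4a1 and Col4a2 are negative in the second and positive in the other two.

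Of the 16 tested collagens, 13 had the same sign in tumor minus DKO liver as in L03 minus L02 of the wild-type livers, against 64.3% of all genes. The difference exceeded the wild-type tag difference in size for 9 of 16 (59.1% of all genes). Tumor minus wild-type liver exceeded it for 5 of 16 (59.1% of all genes), namely Col4a1, Col4a2, Col4a5, Col8a1 and Col15a1. DKO liver minus wild-type liver exceeded it for 7 of 16 (56.3%). Against the L03 wild-type livers alone, tumors had a median collagen difference of 0.24 (all genes −0.04). Of the 16 estimates 13 were positive, against 5033 of all 11351 genes. limma called 0 of 16 there and 0.0264% of all genes, with 1 of 16, Col4a1, at an unadjusted p under 0.05, against 10%.

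Among the fibrillar chains, Col1a2, which encodes the alpha2 chain of type I collagen (mm9 chromosome 6, 4455696 to 4491542), showed the clearest split. It was at 10.7, 14.7, 3.26 and 2.46 RPKM in wild-type livers 1 to 4, at 14.8, 10.3, 23.5 and 11.4 in DKO livers and at 3.10, 2.76, 7.90 and 4.19 in DKO tumors. Wild-type livers 1 and 2 lay within the range of the DKO livers, and wild-type livers 3 and 4 within or just under that of the tumors. Its partner Col1a1, the alpha1 chain (chromosome 11, 94797583 to 94813169), was at 4.51, 9.22, 4.23 and 2.62 in wild-type livers, 9.21, 5.98, 15.0 and 6.52 in DKO livers and 4.20, 3.55, 8.90 and 5.33 in tumors. The 3 groups overlapped for Col1a1, and DKO animal 3 was the highest in both liver and tumor. Col3a1, the chain of type III collagen (chromosome 1, 45368490 to 45405864), was at 9.06, 12.5, 6.37 and 5.42 in wild-type livers, 16.0, 8.90, 35.8 and 13 in DKO livers and 6.18, 6.26, 21.1 and 7.85 in tumors. Again DKO animal 3 was the highest in each tissue. Against the L03 wild-type livers, the tumors differed by 0.51 (Col1a1), 0.43 (Col1a2) and 0.55 (Col3a1), none past the test. Tumor against all wild-type livers had given 0.12, −0.48 and 0.17.

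Type V chains, which nucleate fibrils and limit their width, and the type XXVII chain had lower levels. Col5a1 (chromosome 2, 27742204 to 27893043) was at 1.85, 1.80, 0.847 and 0.639 RPKM in wild-type livers, 2.23, 1.15, 3.60 and 1.07 in DKO livers and 0.387, 0.422, 1.77 and 0.681 in tumors. Col5a2 (chromosome 1, 45431175 to 45560126) ran from 0.308 to 1.13 in wild-type livers, from 0.768 to 2.32 in DKO livers and from 0.388 to 1.15 in tumors. All groups overlapped for both. Col27a1 ranged from 0.561 to 1.92 in wild-type livers, 0.664 to 4.24 in DKO livers and 0.131 to 1.16 in tumors. The 6 tested fibrillar chains had a median difference of −0.17 for tumors and of 0.62 for DKO livers, both against wild-type livers, and of −0.74 for tumors against DKO livers. With the tag as a covariate the last of these was 0.03, and none of the 6 passed any of these tests.

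The beaded filament chains showed the same split as Col1a2. Col6a1 (chromosome 10, 76171536 to 76188788) was at 4.98, 7.60, 1.02 and 1.27 RPKM in wild-type livers, 7.92, 4.84, 11.3 and 4.96 in DKO livers and 0.962, 0.673, 3.32 and 1.81 in tumors. Col6a2, its neighbor on the same strand (76058500 to 76086148), was at 3.43, 4.17, 0.744 and 0.565, then 4.90, 3.29, 6.22 and 3.24, then 0.454, 0.486, 1.61 and 1.30. For both genes the 2 L03 wild-type livers lay within the range of the tumors and the 2 L02 wild-type livers within that of the DKO livers. The third chain of the classical type VI helix, Col6a3, was not analysed here, nor were Col6a4, Col6a5 and Col6a6. Against the L03 wild-type livers the tumors differed by 0.23 (Col6a1) and 0.20 (Col6a2), and the DKO livers differed from the L02 wild-type livers by 0.13 and 0.14, all without passing the test.

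Fibril-associated chains sit on the surface of fibrils. Col16a1 (chromosome 4, 129725131 to 129776518) was at 1.17, 1.44, 0.326 and 0.436 RPKM in wild-type livers, 1.44, 1.20, 1.76 and 1.42 in DKO livers and 0.328, 0.382, 0.597 and 0.258 in tumors. It lay under 0.6 RPKM in the L03 libraries and over 1.1 in the L02 libraries. Its counts behind these values were 20 to 112 reads per library. Col14a1 (chromosome 15, 55139305 to 55352355) was at 3.73, 7.53, 4.11 and 3.50 in wild-type livers, 7.89, 4.75, 23.3 and 3.21 in DKO livers and 1.69, 3.21, 16.1 and 1.01 in tumors. DKO animal 3 was the highest in both tissues, and both the groups and the tags overlapped.

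**Figure D2:**
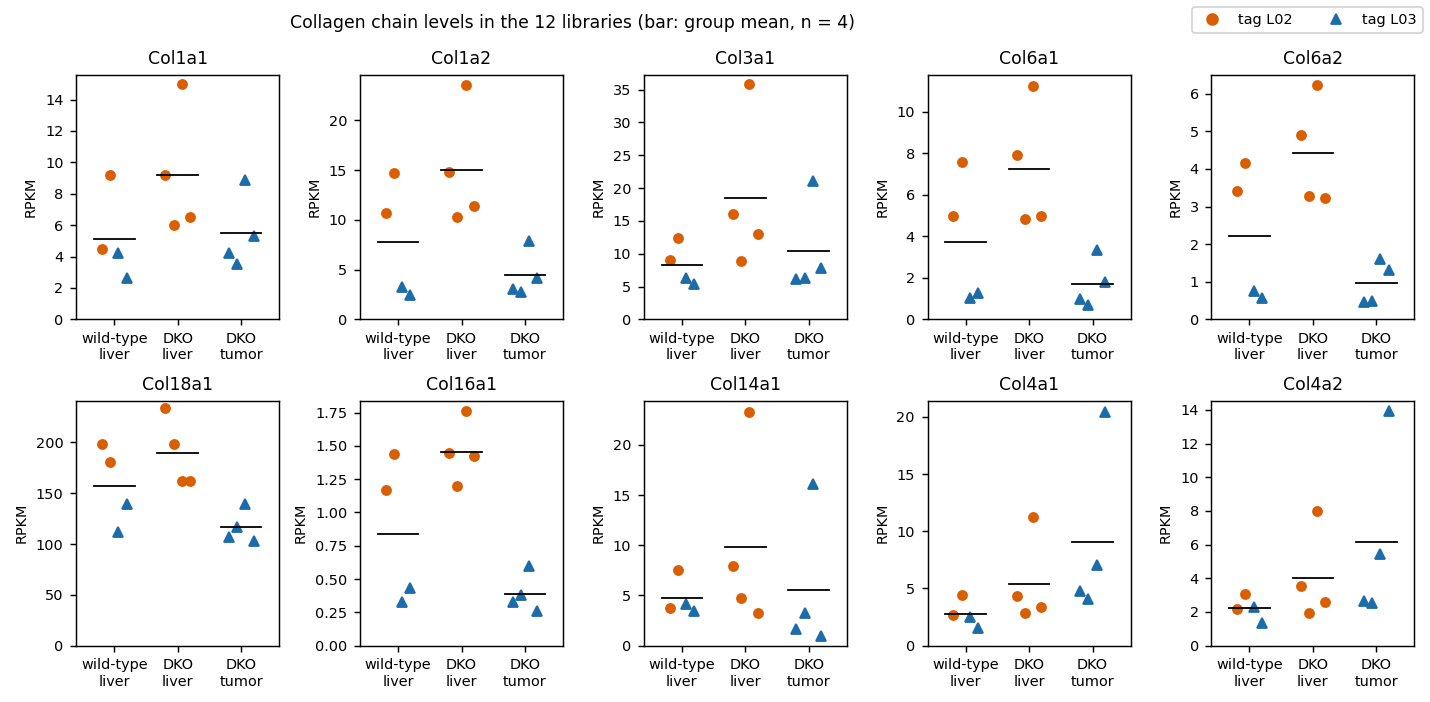
RPKM (y axis, from 0) of 10 collagen chains in each library of the 3 groups, with circles for tag L02, triangles for tag L03 and a bar at the mean of 4 libraries. For Col1a2, Col6a1, Col6a2, Col16a1 and Col18a1 every triangle is below every circle, in wild-type liver too, whereas Col4a1 and Col4a2 are highest in DKO tumor 4.

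Col18a1 (chromosome 10, 76514923 to 76576449) was the most abundant collagen in every library, with 52.1 to 85.8% of the summed collagen RPKM. It was at 198, 180.5, 112 and 139 RPKM in wild-type livers, 234, 199, 162 and 162 in DKO livers and 107, 117, 139.7 and 103 in tumors. The 6 L03 libraries reached at most 139.7 and the 6 L02 libraries at least 162. Its tumor minus DKO liver difference was −0.69 (SE 0.22, limma adjusted p = 0.157), and L03 minus L02 in wild-type liver was −0.60. Against the wild-type livers of the same tag the tumors differed by −0.11 and the DKO livers by −0.02. The files list a second transcript from the upstream start shown above. Its listed level was 88.4 to 195 RPKM, and the ratio of the transcript used to it was 1.13 to 1.24 in all 12 libraries. Both transcripts end at 76514923. How reads in exons common to both were counted was not examined, so these values do not give the use of each start. The relative Col15a1, which encodes the other multiplexin, was far lower, at 0.594 to 1.98 in wild-type livers, 0.498 to 2.88 in DKO livers and 0.903 to 3.15 in tumors. DKO animal 4 was its highest in each tissue. Summed collagen RPKM, led by Col18a1, was 143 to 254 in wild-type livers, 220 to 312 in DKO livers and 138 to 222 in tumors.

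The type IV chains, which build basement membranes, were the group with the highest estimates in tumors. Col4a1 (chromosome 8, 11198422 to 11312825) was at 2.71, 4.39, 2.47 and 1.55 RPKM in wild-type livers, 4.31, 2.82, 11.2 and 3.37 in DKO livers and 4.76, 4.07, 7.06 and 20.5 in tumors. Col4a2 (11313023 to 11449214), which faces it across 198 bases in mm9, was at 2.20, 3.08, 2.32 and 1.37, then 3.53, 1.93, 7.97 and 2.61, then 2.66, 2.51, 5.45 and 13.9. Tumor 4 was the highest for both chains, DKO liver 3 the highest liver, and 3 of 4 tumors exceeded every wild-type liver for Col4a1. Among wild-type livers the L03 minus L02 difference had the opposite sign, −0.59 for Col4a1 and −0.36 for Col4a2. Against the L03 wild-type livers alone, the tumor difference was 1.5 for Col4a1 (SE 0.57, limma adjusted p = 0.403) and 1.08 for Col4a2 (SE 0.56, adjusted p = 0.552). Without DKO tumor 4 the differences from all wild-type livers were 0.76 and 0.45 (adjusted p = 0.287 and 0.529), and those from the DKO livers 0.11 and −0.06.

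Col4a3, Col4a4 and Col4a5 encode the chains of the specialised network best known from the kidney glomerulus. They were higher in tumors 1 to 3 than in every wild-type liver. Col4a3 (chromosome 1, 82583495 to 82718633) had 4, 10, 7 and 11 reads in wild-type livers, 6, 8, 25 and 16 in DKO livers and 167, 74, 86 and 14 in tumors. In RPKM the tumors were at 1.22, 0.677, 0.699 and 0.108 and the 8 livers at 0.0576 to 0.236. Tumors 1 to 3 thus exceeded all livers, and tumor 4 did not. Col4a4, which starts 72 bases from Col4a3 on the other strand, had 2 to 4 reads in wild-type livers, 6 to 19 in DKO livers and 42, 27, 43 and 10 in tumors, or 0.337, 0.272, 0.385 and 0.0852 RPKM. Neither passed the filter. In a fit of all 19012 symbols without a filter the tumor minus wild-type difference was 0.59 for Col4a3 (limma adjusted p = 0.182) and 0.29 for Col4a4 (adjusted p = 0.146). All 4 tumors lay above all 4 wild-type livers for both, against 4.02% of all symbols, and all 4 DKO livers did so for Col4a4, against 4.05%.

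Col4a5 (chromosome X, 137909961 to 138123722) passed the filter and was at 0.080, 0.312, 0.363 and 0.269 RPKM in wild-type livers, 0.304, 0.286, 0.972 and 0.275 in DKO livers and 1.34, 1.03, 0.636 and 0.181 in tumors. Tumors 1 to 3 exceeded every wild-type liver and tumor 4 was lower than wild-type livers 2 to 4. Tumors 1 and 2 also exceeded every DKO liver, whereas tumor 3 was below DKO liver 3. The tumor minus wild-type difference of Col4a5 was 0.66 without DKO tumor 4 (adjusted p = 0.0938) and 0.15 without DKO animals 1 and 2. Col4a6, its head-to-head neighbor across 1343 bases, had 1 to 7 reads in wild-type livers, 3 to 8 in DKO livers and 7 to 20 in tumors. Without Col18a1, the type IV chains made up 10.4, 10.9, 17.1 and 14.6% of the collagen RPKM in wild-type livers, 10.7, 9.92, 13.9 and 11.5% in DKO livers and 33.1, 29.1, 17.7 and 55.3% in tumors. Every tumor was thus above every liver in this share. Both the numerator and the denominator enter it, and the denominator holds the chains that split by tag. The type VI share was 14.2 to 17.1% in 5 of the 6 L02 libraries, 11.7% in DKO liver 3, and 3.90 to 7.97% in the L03 libraries.

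**Figure D3:**
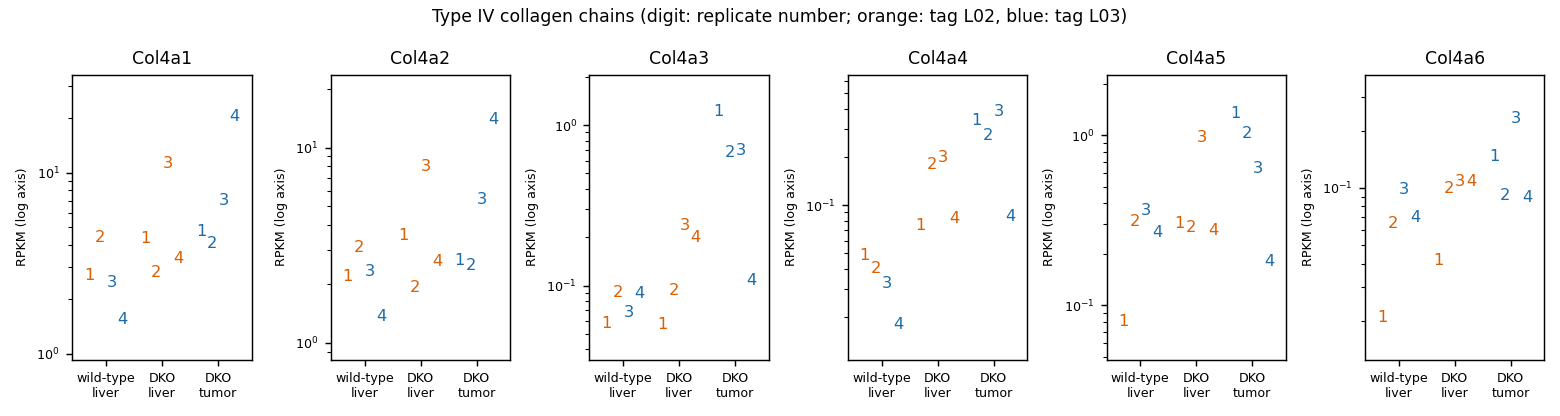
RPKM (y axis, log scale, own range per panel) of the 6 type IV chains by group, each library drawn as its replicate number, orange for tag L02 and blue for tag L03. Tumor 4 is the highest library for Col4a1 and Col4a2 and the lowest tumor for Col4a3, Col4a4, Col4a5 and Col4a6, of which tumor 1 or tumor 3 is the highest.

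Ratios of chains within a library do not depend on its depth. Col1a1 and Col1a2 contribute unequally to the usual type I helix, and their ratio was 0.420, 0.628, 1.30 and 1.06 in wild-type livers, 0.622, 0.579, 0.636 and 0.574 in DKO livers and 1.36, 1.29, 1.13 and 1.27 in tumors. It was 0.420 to 0.636 in all L02 libraries and 1.06 to 1.36 in all L03 libraries, with no library between. On the log2 scale, tumor minus DKO liver was 1.06 (two-sided exact permutation p = 0.0286, the smallest that 70 splits of 4 against 4 can give; adjusted p = 0.229 over 24 tests of 8 ratios). L03 minus L02 among the wild-type livers was 1.19, and tumor minus L03 wild-type liver was 0.10. The ratio of the paired genes Col4a1 and Col4a2 ranged from 1.06 to 1.79 and that of Col6a1 and Col6a2 from 1.36 to 2.25. For Col4a1 to Col4a2, tumor minus wild-type liver was 0.35 on the log2 scale (exact permutation p = 0.0571, adjusted p = 0.343). Tumor minus L03 wild-type liver was 0.48 for this ratio, and L03 minus L02 among the wild-type livers was −0.27. Col3a1 was 1.35 to 2.39 times Col1a1 in every library. The Col5a1 to Col5a2 log2 ratio was lower in tumors (0.04 ± 0.41, SD, n = 4) and in DKO livers (0.43 ± 0.36) than in wild-type livers (0.89 ± 0.16; exact permutation p = 0.0286 each, adjusted p = 0.229). Of the 24 tests, 3 had an unadjusted p under 0.05 and 0 an adjusted one. An adjusted p under 0.05 would have needed many of the 24 tests at the smallest possible p, so the adjusted count decides little. The other ratios, Col4a3 to Col4a4, Col4a5 to Col4a6 and Col18a1 to Col15a1, had unadjusted p of 0.114 to 1.0 with wide spreads.

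**Figure D4:**
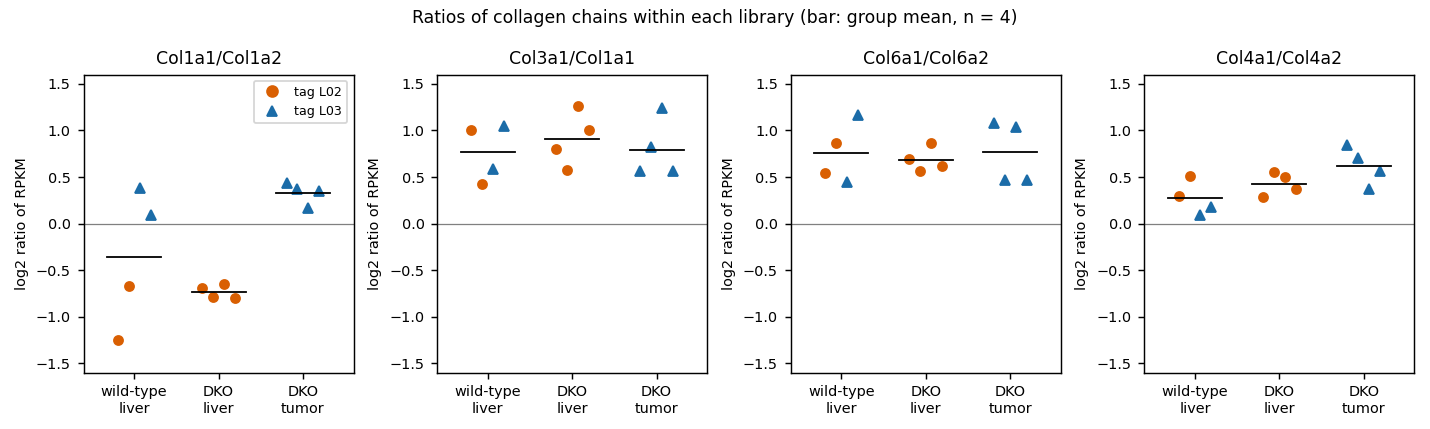
Log2 ratio of the RPKM of 2 collagen chains within each library (y axis) by group, with circles for tag L02, triangles for tag L03 and a bar at the mean of 4. The Col1a1 to Col1a2 ratio is below 0 in all L02 libraries and above 0 in all L03 libraries, whereas the other ratios overlap between tags.

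Beside the type IV chains, a few low chains differed between groups without passing the filter. Col13a1, a transmembrane collagen, was at 0.432, 0.511, 0.754 and 0.388 RPKM in wild-type livers, 0.140 to 0.790 in DKO livers and 0.108, 0.217, 0.193 and 0.0229 in tumors, so that all tumors were below all wild-type livers (4.04% of all symbols; log2 difference −0.42, limma adjusted p = 0.225 without a filter). Col9a1, of the fibril-associated type IX, was at 0.144 to 0.173 in wild-type livers, 0.0238 to 0.158 in DKO livers and 0.195 to 0.231 in tumors, from 1 to 12 reads per library. Tumors were thus above both other groups for Col9a1, as were 4.02% of all symbols against wild-type liver and 1.99% against DKO liver. Col11a2 and Col12a1 were wholly higher in DKO than in wild-type livers (4.05% of all symbols), no untested chain was wholly lower there (1.28% of all symbols), and Col11a1 wholly lower in tumors than in DKO livers (3.15% of all symbols). These rest on 0 to 14 reads for Col11a1 and Col11a2, and on 12 to 48 for Col12a1. Col8a1, a short-chain network collagen, was tested and was at 0.371 to 0.527 in wild-type livers, 0.380 to 1.29 in DKO livers and 0.331 to 0.958 in tumors. Col5a3 ranged from 0.0388 to 0.824 with no order of the groups. The remaining 12 genes, Col2a1, Col7a1, Col8a2, Col9a2, Col9a3, Col10a1, Col17a1, Col19a1, Col23a1, Col24a1, Col25a1 and Col28a1, had at most 11 reads in any library, and levels this low carry no comparison.

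Genes that modify, process, remove or sense collagen were described by lists. Of 13 tested modification and folding genes, 0 changed in any comparison, with medians of 0.15 (tumors against wild-type livers), 0.50 (DKO livers against wild-type livers) and −0.30 (tumors against DKO livers), the order kept for the lists that follow. The most abundant were P4hb, the beta subunit of prolyl 4-hydroxylase (487 ± 47.3, 537 ± 46.0 and 523 ± 78.8 RPKM in wild-type liver, DKO liver and tumor, SD, n = 4 each), and the isomerase Ppib (291 ± 52.1, 383 ± 94.2 and 349 ± 53.1). Of 9 processing and crosslinking genes 0 changed, with medians of 0.02, 0.53 and −0.55. The collagen-binding Sparc was at 36.2 ± 7.94, 79.3 ± 34.5 and 76.5 ± 31.4 (tumor against wild-type liver 0.99, limma adjusted p = 0.121), and the C-proteinase gene Bmp1 at 21.9 ± 4.69, 31.3 ± 3.89 and 21.0 ± 1.76. The lysyl oxidase genes Lox and Loxl1, named after their values were seen, split by tag like Col1a2. Lox was at 1.04 to 2.34 RPKM in the L02 and 0.240 to 0.718 in the L03 libraries, and Loxl1 at 0.942 to 2.20 and 0.0323 to 0.431. Of all genes, 1.03% lay wholly lower in L03 over the 12 libraries, and the other 7 tested genes of this list overlapped between the tags.

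Of 12 tested breakdown and inhibitor genes 0 changed in the 3 comparisons of groups (medians −0.07, 0.57 and −0.59), and 1 was lower in L03 than in L02 wild-type livers, against 0.211% of all genes. This was the gelatinase gene Mmp9 (log2 difference −1.6, limma adjusted p = 0.0291), named after its values were seen. At an unadjusted p under 0.05 there were 5 of 12 between these livers, 1 higher and 4 lower in L03, against 2.08% of all genes. The membrane collagenase gene Mmp14 was at 17.5 ± 2.0, 31 ± 7.5 and 23.1 ± 3.56 RPKM, and the inhibitor gene Timp3 at 6.48 ± 1.25, 11 ± 7.94 and 14.4 ± 7.58. Of 5 receptors 0 changed (medians 0.14, 0.23 and 0.07), among them the integrin subunits Itgb1 (54.3 ± 9.21, 58.4 ± 9.66 and 67.2 ± 15.6) and Itga1 (3.82 ± 1.03, 4.14 ± 1.6 and 4.36 ± 1.47). Of 16 tested TGF-beta and PDGF pathway genes, which include the main inducers of fibrillar collagen, 2 rose and 0 fell in tumors against wild-type livers, where 1.9% of all genes were called (medians 0.21, 0.36 and 0.10). The TGF-beta receptor gene Tgfbr2 rose from 5.28 ± 1.94 to 17.1 ± 3.36 RPKM (SD, n = 4 each; log2 difference 1.56, limma adjusted p = 0.0222). Against the L03 wild-type livers its difference was 1.59 (adjusted p = 0.187). In the other 2 comparisons 0 of the 16 changed.

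Markers of the cell types that make collagen are given beside these values. Of the 14 stellate cell and fibroblast markers 0 changed (medians −0.36, 0.52 and −0.78), and none was at 0 in any library. Their summed level was 169, 177, 194 and 137 RPKM in wild-type livers, 311, 143, 417 and 135 in DKO livers and 93.9, 86.0, 309 and 116 in tumors. DKO animal 3 was the highest in both tissues, as for Col1a1, Col1a2, Col3a1 and Col14a1, and the L02 and L03 wild-type livers did not separate in this sum, which Dcn led. By single markers, 11 of 14 had a lower estimate in L03 than in L02 wild-type livers (median −0.27), as had 5190 of all 11351 genes. At an unadjusted p under 0.05, 2 of the 14 were lower, where 2.08% of all genes passed that level and 0.916% were lower. These were Acta2, the smooth muscle actin gene, and Postn, encoding periostin, both named after their values were seen. Acta2 was at 7.67 and 9.43 RPKM in the L02 and 1.84 and 2.13 in the L03 wild-type livers (log2 difference −1.67, limma adjusted p = 1.0), and Postn at 6.68 and 9.14 against 1.66 and 1.19 (−1.87, adjusted p = 0.129). The most abundant members were Dcn, encoding decorin (95.6 ± 15.1, 131 ± 80.9 and 71.8 ± 65.4), and Vim, encoding vimentin (26.1 ± 6.85, 33.3 ± 13.8 and 34.5 ± 15.9). Of 14 endothelial markers 0 changed (medians 0.24, 0.55 and −0.15) and none was at 0. Their sums were 66.1 to 104 in wild-type livers, 102 to 197 in DKO livers and 61.1 to 151 in tumors, with tumor 4, the highest for Col4a1, at 113 and tumor 3 at 151. At an unadjusted p under 0.05 there were 5 of 14 in tumors against wild-type livers, 4 higher and 1 lower, against 19.2% of all genes. Some markers, named after their values were seen, were highest of all 12 libraries in tumor 4, as were Col4a1 and Col4a2. There Pecam1 was at 23 RPKM, Cdh5 at 16.8, Cd34 at 14.6, Emcn at 10.6 and Flt1 at 2.47. Other markers went the other way, with Clec4g (1.9), Stab2 (1.88) and Vwf (0.287) lowest of all 12 libraries in tumor 4. The remaining markers of the list were neither highest nor lowest there. The tumor minus wild-type difference was 1.36 for Cd34 (limma adjusted p = 0.0687) and 1.31 for Emcn (adjusted p = 0.0574). The most abundant endothelial markers by mean were Clec4g (30.5 ± 5.14, 44.6 ± 10.2 and 17.0 ± 13.5) and Eng (13.6 ± 3.34, 25.0 ± 14.0 and 15.3 ± 11).

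Of 4 tested cholangiocyte markers 0 changed (medians 0.31, 0.73 and −0.43), with sums of 29.7 to 42.5, 34.0 to 171 and 18.5 to 117, and Cftr was at 0 in at least 1 library. Spp1 was at 26.8 ± 5.18, 61.4 ± 62.0 and 40.3 ± 42.4. Of 8 macrophage markers 0 changed (medians −1.05, 0.73 and −1.38), none was at 0, and the sums were 96.4 to 277 in wild-type livers, 187 to 514 in DKO livers and 37.1 to 232 in tumors. The Kupffer cell gene Clec4f was at 59.3 ± 29.5, 108 ± 37.9 and 29.4 ± 35.3 and Cd5l at 47.4 ± 25.6, 93.5 ± 50.7 and 24.0 ± 21.6. Of 8 hepatocyte markers 0 changed (medians −0.26, 0.09 and −0.27) and none was at 0, with sums of 49800 to 75100, 44100 to 114000 and 71800 to 130000, carried mainly by Alb and Apoa1. The part of these cell types in the collagen levels was not tested.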

How the data were processed

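Polyadenylated RNA of 12 mouse liver or tumor samples was made into libraries with a SOLiD kit and sequenced, per the labels' protocols. RPKM per RefSeq transcript was deposited by the authors, per the file headers. The submitters' processing notes name BWA and mm9. The first base of the coordinates (0 or 1) is not stated. The longest transcript by exon length represents each symbol. At least 99.991% of values were whole reads within 0.05 of a read, which gave depth and counts.

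The 11351 genes that reached 0.5 RPKM in 4 or more libraries were tested on log2(RPKM + 1) over the 12 libraries with limma 3.58.1 (R 4.3.3, trend, robust), two-sided, Benjamini-Hochberg at 0.05. The fit was tested on simulated data. The other tool was limma's voom on the recovered reads. Replicates of a group carry different animal codes. DKO liver and tumor of 1 number share an animal code and are paired. Correlations of their deviations were 0.117, 0.346, 0.367 and 0.00285 for animals 1 to 4. The highest correlation of each liver with a tumor of another number was 0.0916, −0.0291, −0.00874 and 0.154. Liver 4 thus correlated more with another tumor than with its own. Ratios were tested by exact permutation with Python 3.11.15 and scipy 1.17.1.

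The members, the 19 lists (9 of collagen classes, 10 of other genes) and the tests were chosen with earlier results of these data known. Named collagens are those that passed, the 8 highest by mean, the 3 largest differences each way per comparison, and the chains of the ratios. From each other list up to 4 changed genes, or the 2 highest, were named, except 2 genes that are not reported here. Other members are given by values or ranges. The class of type XXVI had no gene in the data used. Epcam, Mia3, Gp6, Col20a1, Col22a1 and Col26a1 were not analysed here. Alternatives covered scaling, offset, filter, shrinkage, libraries, tag, block, voom, transcript choice and leaving out libraries.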

Additional observations from a re-analysis of the deposited data

Results flagged for a closer look

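In 42 sets of 4 libraries, 4 held a library whose gap to its nearest neighbor took up more of the range of its group than the 95% limit of Dixon's test allows, which chance exceeds in about 1 of 20 groups. Col14a1 was at 7.53 RPKM in wild-type liver 2, against 3.50 to 4.11 in the other wild-type livers. Col14a1 was at 16.1 in DKO tumor 3, against 1.01 to 3.21 in the other tumors. Col3a1 was at 21.1 in DKO tumor 3, against 6.18 to 7.85. Col4a5 was at 0.972 in DKO liver 3, against 0.275 to 0.304. Of the 4, 3 are libraries of DKO animal 3.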

How the results depend on the processing

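In tumor and DKO liver against wild-type liver, limma called 0 of the tested collagens under all 25 alternatives. Leaving out single libraries gave median differences of −0.32 to 0.03 for tumors and 0.34 to 0.68 for DKO livers. Against the wild-type livers of the same tag the medians were 0.24 for tumors (main fit −0.16) and 0.19 for DKO livers (main fit 0.50). In tumor against DKO liver the count was 4 with the replicate block, 2 in the 8 libraries alone (Col6a2 and Col16a1, adjusted p = 0.031 and 0.0385) and 0 to 1 when single libraries were left out, the 1 being Col16a1 without DKO tumor 3 (adjusted p = 0.0416). Pairing by animal changed no other call of a collagen. Its fit held the 8 DKO libraries only and gave 71 calls over all genes. The same 8 libraries without pairing gave 55, and the main fit of 12 libraries gave 1. The median, −0.70, was −0.01 with no filter, where 37 mostly low genes enter, and 0.04 with the tag. L03 against L02 in wild-type liver gave 2 after median-of-ratios scaling and 1 after quantile normalization.

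Signs changed as follows, all without a call, and the cause was not tested. In tumor against wild-type liver, Col5a2 was −0.00 after median-of-ratios scaling and −0.09 after quantile normalization. With the tag or the same-tag livers Col1a2 was 0.43, Col5a1 0.00, Col6a1 0.23, Col6a2 0.20 and Col16a1 0.01 (from −0.36), and Col14a1 was 0.09 without DKO animals 1 and 2. Leaving out single libraries gave −0.12 to 0.11 for Col5a2, −0.10 to 0.40 for Col1a1, −0.21 to 0.36 for Col3a1 and −0.96 to 0.07 for Col14a1. In DKO liver against wild-type liver, Col18a1 was −0.02 with the tag, and Col15a1 −0.06 to 0.40 when single libraries were left out. In tumor against DKO liver, with the tag Col1a1 was 0.15, Col1a2 0.26, Col5a2 0.08, Col6a1 0.10 and Col6a2 0.06. Col8a1 was −0.05 with voom and Col4a5 −0.19 without DKO animals 1 and 2. Leaving out single libraries gave −0.08 to 0.38 for Col15a1, −0.08 to 0.16 for Col8a1 and −0.06 to 0.71 for Col4a2. Median-of-ratios scaling moved the median of all genes in tumor against DKO liver from −0.09 to 0.02. Of all genes, tumor against wild-type liver gave 216 calls, 598 after median-of-ratios scaling, 492 after quantile normalization, 1 with no filter and 3 with the tag. It gave 16 without wild-type liver 4, 20 without tumor 2, 21 without wild-type liver 1, 37 without tumor 1, 83 without wild-type liver 2 and 413 without tumor 3. Depth leaves 12 collagens at 10 or fewer reads in every library.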
